A study of Mus musculus with 7 samples.

Results

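The osteoclast program genes are 9 of the 33696 genes counted in single cells of mouse malignant peripheral nerve sheath tumor (MPNST) allografts: Tnfsf11, Tnfrsf11a, St18, Dcstamp, Ocstamp, Atp6v0d2, Acp5, Ctsk and Mmp9. They were taken by symbol. The set was chosen by the UMI levels of Acp5, Atp6v0d2 and St18, which had led a cluster of macrophages in an earlier pass over these cells, so their height in macrophages against other cells is given as a description, with no test. The other members are genes known to act before or beside those 3 in osteoclasts.

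The tumors grew from JW23.3, a mouse MPNST cell line, of which 5000000 cells were placed under the flank skin of wild-type female C57/B6 mice aged 5 to 6 weeks. Mice were randomized on day 7, and 4 tumors received radiotherapy (RT) as 5 daily fractions of 2 Gy, with lead shielding of the rest of the body, while 3 control tumors were left untreated. All 7 tumors were harvested on day 21 and sequenced as 1 droplet library each, with the tumor as the replicate. All tumors came from 1 cell line, so the malignant cells are a single genetic background, while macrophages, T cells and vessels belong to the host. The libraries held 39537 cells, of which 34296 passed the filters, and 53496570 to 153044123 unique molecular identifiers (UMIs, each standing for 1 captured transcript). A gate on macrophage markers took 11857 cells, in which all 15 macrophage markers were found in at least 25% of cells and none of the 8 T and natural killer (NK) cell markers was. A gate on markers of the line took 14968 tumor cells, with 516 cells lying near the cut of the macrophage gate and 1056 near that of the tumor gate. Pairs of libraries shared 3 to 19 cell barcodes, at most 0.397% of the smaller library. The split of the libraries into 2 groups with the least variation in cell number, UMIs, genes and mitochondrial share within them put irradiated 1, control 2 and control 3 together (set 1) and the other 4 libraries apart (set 2). The sets were drawn from the data and overlap in single measures, with median mitochondrial shares of 3.60% to 4.82% in set 1 and 3.13% to 4.46% in set 2. Set 1 holds 1 irradiated tumor and set 2 holds 1 control, so values within the sets have no replicate check on that side.

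Osteoclasts are multinucleated cells that dissolve bone, and they form when myeloid precursors of the monocyte and macrophage lineage fuse. The cytokine RANKL (Tnfsf11), displayed by stromal cells and T cells, binds its receptor RANK (Tnfrsf11a) on the precursor, which in the presence of macrophage colony-stimulating factor switches on the transcription factor Nfatc1. Nfatc1 and its partners then turn on genes for cell fusion (Dcstamp, Ocstamp and Atp6v0d2) and for resorption of matrix (Acp5, Ctsk and Mmp9). Tumor macrophages can carry part of this set, and Ctsk and Mmp9 are also made by mesenchymal cells.

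The RefSeq promoter table of GRCm38.p6, the patch release of mm10, held windows for 4 of the 9 members. From the 3 windows for Acp5, that of 250 bases before a start on the minus strand at chr9:22130599-22130848, and that of Tnfsf11, on the minus strand at chr14:78308044-78308293, are shown because these genes are the resorption marker and the ligand on which the account below turns. For both windows shown, bases just after the window were found in an annotated transcript of the gene. Capitals mark the NFAT core GGAAA and the MITF/TFE motif TCATGTG, searched on both strands together with the AP-1 motif TGANTCA.
Acp5: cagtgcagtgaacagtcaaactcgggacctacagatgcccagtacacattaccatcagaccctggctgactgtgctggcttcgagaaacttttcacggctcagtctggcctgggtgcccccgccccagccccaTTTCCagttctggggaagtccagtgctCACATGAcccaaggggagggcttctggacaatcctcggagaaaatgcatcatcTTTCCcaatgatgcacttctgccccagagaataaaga
Tnfsf11: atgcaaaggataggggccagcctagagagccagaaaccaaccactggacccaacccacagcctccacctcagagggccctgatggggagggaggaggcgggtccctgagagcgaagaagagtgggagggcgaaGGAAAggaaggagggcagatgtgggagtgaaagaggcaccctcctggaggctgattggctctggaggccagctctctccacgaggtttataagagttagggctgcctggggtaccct
The Acp5 window held the MITF/TFE motif 90 to 84 bases before the start and the NFAT core at 117 to 113 and at 37 to 33 bases before it. Of the 32851 promoter windows of this length in the table, 3.25% held the MITF/TFE motif, 55.6% the NFAT core and 6.75% the AP-1 motif. The Tnfsf11 window held the NFAT core 117 to 113 bases before the start. The windows of Ctsk and Tnfrsf11a held none of the 3 motifs. The other windows of Acp5 held the NFAT core, and neither held the MITF/TFE motif.

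Among the macrophage, tumor, T and NK, dendritic and endothelial gates the ligand was highest in T and NK cells and the receptor in macrophages. Tumor cells held UMIs of both. Leukocytes that met no lineage gate, which include most of the co-expressing cells described below, held 2387 Tnfrsf11a UMIs of 6744437 UMIs. That is a higher share than the 18590 of 96669947 in the macrophage gate. Of 3801 Tnfsf11 UMIs in retained cells, 2795 were in tumor-gate cells, where the level was 6.57 ± 1.64 CPM (counts-per-million of the UMIs of the gate; mean ± SD, n = 7) and 10.1% of cells had at least 1 UMI. With every cell thinned to 3000 UMIs, 1.23% to 2.44% of tumor cells per library kept one. T and NK cells carried Tnfsf11 at 54.9 ± 22.5 CPM (SD, n = 7), with 12.4% of cells positive at a median depth of 3428 UMIs and 7.02% to 13.75% after thinning. The macrophage gate held 12 Tnfsf11 UMIs in 11857 cells, and 1 of 473 endothelial cells had one, so the ligand was at background in both.

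Tnfrsf11a was the member most widely found among macrophages. Its level in the macrophage gate was 191 ± 22.7 CPM (SD, n = 7), with UMIs in 56.8% of cells at a median of 6475 UMIs per cell and in 32.1% to 41.3% after thinning. Endothelial cells had 68.3 ± 51.9 CPM and dendritic cells 96.2 ± 39.5 CPM (SD, n = 7). Tumor cells lay far below at 8.16 ± 3.21 CPM, although their median depth was 23037.5 UMIs, and 216 of them held receptor and ligand together against 236 expected from each gene alone at their depth (ratio 0.91). The macrophage gate held 18590 of 26898 Tnfrsf11a UMIs, or 69.1%.

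St18, which encodes a zinc-finger transcription factor, was the other member held mainly by the macrophage gate. Its level there was 70.4 ± 23.5 CPM (SD, n = 7), 16.4% of cells had a UMI, and 62.8% of its UMIs were in these cells. In tumor cells it was 0.90 ± 0.30 CPM, below the 1.09 CPM of T and NK cells, a level read here as background. Within the macrophage gate, 23.9% of cells with an Arg1 UMI had St18 against 14.6% of cells without, and 17.9% of cells with Trem2 against 9.16% of cells without. These splits compare cells of unequal depth and are given without a test.

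The fusion genes were sparse in macrophages. Dcstamp, a membrane protein needed for precursors to fuse, was at 3.64 ± 1.81 CPM in the macrophage gate, with UMIs in 0.489% of cells against 1 of 1191 T and NK cells. Its partner Ocstamp was at 0.84 ± 0.40 CPM in macrophages, with UMIs in 0.590% of cells. Atp6v0d2, a subunit of the vacuolar proton pump that also takes part in fusion, was at 4.32 ± 3.65 CPM, with UMIs in 0.835% of macrophages and in 0.840% of T and NK cells. By the share of cells with a UMI, Atp6v0d2 in the macrophage gate was thus at the level of cells that should lack it. In tumor cells the 3 genes were at 0.10 CPM or below.

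Among the resorption genes, Acp5 and the proteases differed in where they lay. Acp5, the tartrate-resistant acid phosphatase used to stain osteoclasts, was found in 13.8% of macrophages against 1.27% of endothelial cells at like median depths of 6475 and 6206 UMIs, and its macrophage level was 36.6 ± 12.2 CPM (mean ± SD, n = 7). T and NK cells carried Acp5 at 49.9 ± 5.28 CPM, and tumor cells at 0.78 ± 0.63 CPM, under the 1.66 CPM of endothelial cells. Ctsk (cathepsin K, the main collagen-cutting protease of osteoclasts) was at 62.8 ± 22.4 CPM in tumor cells, found in 47.5% of them, and at 94.6 ± 13.2 CPM in pericytes. Mmp9, a gelatinase, was at 62.9 ± 11.2 CPM in tumor cells, found in 44.1% of them. In the macrophage gate Ctsk had 19.7 ± 26.9 CPM and Mmp9 8.06 ± 11.9 CPM, an SD above the mean in both cases.

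**Figure D1:**
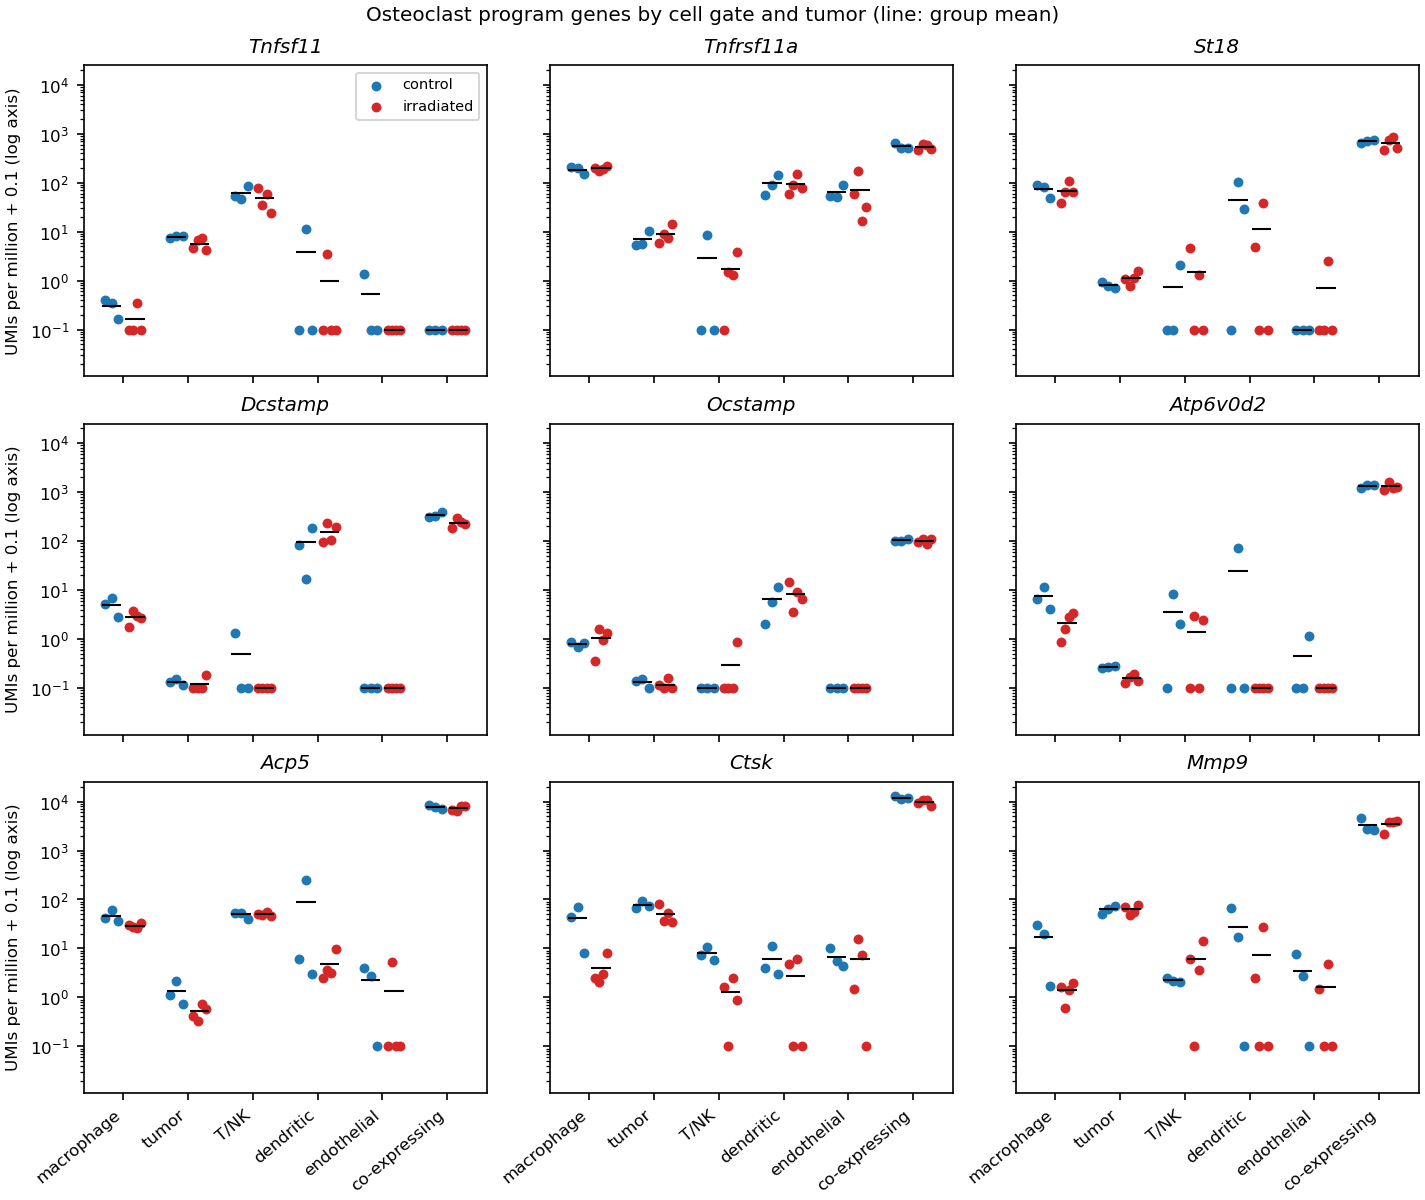
CPM plus 0.1 on a log axis for each of the 9 genes (panels) in 5 cell gates and in the co-expressing cells described below (x axis); each point is 1 tumor, control in blue and irradiated in red, and black lines are group means. Tnfsf11 is highest in T and NK cells (54.9 CPM on average). The other 8 genes have their highest means in the co-expressing cells. Among the gates shown, macrophages come next for Tnfrsf11a and St18.

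Most UMIs of the resorption and fusion genes lay in few cells that held them together. For each cell the number of core members with at least 1 UMI was counted among Acp5, Atp6v0d2, Ctsk, Mmp9, Ocstamp, Dcstamp and St18. A group of 185 retained cells held 5 or more of these 7, and it carried 83.8% of all Acp5 UMIs (26603 of 31749), 86.6% of Atp6v0d2 (4615 of 5332), 72.1% of Ocstamp (351 of 487) and 55.0% of Dcstamp (1067 of 1940). The share was 52.6% for Ctsk, 27.4% for Mmp9 and 22.4% for St18. The cut at 5 was set after the values were seen, so these shares describe the cells and support nothing further. Just outside the cut, the 57 cells with 4 core members had a median of 6 Acp5 and 3 Ctsk UMIs, whereas the 36 cells with 5 had 41 and 49, and the 91 cells with all 7 had 149 and 234.

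These co-expressing cells were mostly not in the macrophage gate. Of the 185, 157 lay among the 786 leukocytes that met no lineage gate, 8 in the macrophage gate and 1 in the tumor gate. Xist, made by cells of the female host, was found in 95.7% of them, and the median share of UMIs from tumor markers was 0.003%. Of the 4 pan-leukocyte genes, Laptm5 was found in 95.1%, Ptprc in 85.4%, Cd52 in 84.3% and Coro1a in 24.3%. Of the 15 macrophage markers, 8 were found in at least 25% of these cells, from Cd68, a lysosomal protein of the macrophage lineage, in 96.2% and the protease Ctss in 74.6% to C1qa in 33.5%. Adgre1, at 15.1%, and Aif1, at 11.4%, were among the others, and macrophage markers made up a median of 0.101% of UMIs against 2.45% in the macrophage gate. The cells were deep, with a median of 14929 UMIs against 11884.5 over all retained cells. Of the 185, 8 were called doublets, 5 of them in control 2, against 706 of all 34296 retained cells (2.06%). No marker list for osteoclasts apart from these genes was set, so the cells are called by their co-expression and given no cell type name.

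**Figure D2:**
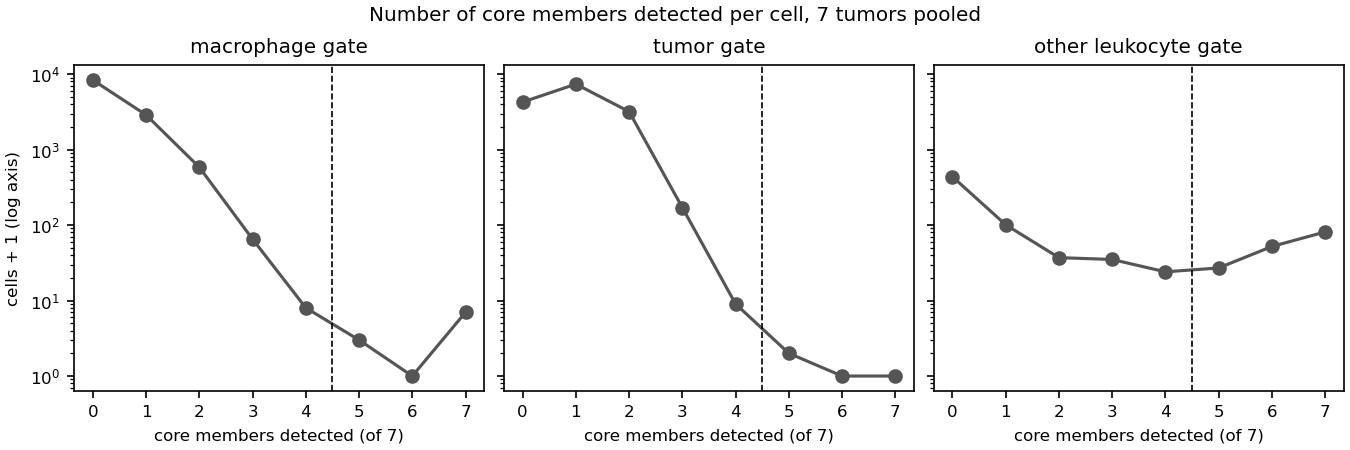
Number of cells plus 1 (log axis) by the number of core members detected per cell (0 to 7), for the macrophage, tumor and other-leukocyte gates with 7 tumors pooled; the dashed line is the cut at 5. Counts drop steeply from 8326 cells with none in the macrophage gate, while the other-leukocyte gate rises again to 80 cells with all 7.

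On the CPM scale Acp5 in the co-expressing cells ran from 6544 to 8450 over the 7 libraries, Atp6v0d2 from 1082 to 1644 and Ocstamp from 85.7 to 110. Mmp9 varied more, from 2199 CPM in irradiated 1 to 4569 in control 1. The receptor Tnfrsf11a was at 471 to 637 CPM and St18 at 468 to 848. Tnfsf11 had 0 UMIs in the 185 cells, which allows a level of up to 0.860 CPM (3 UMIs over all of them) and up to 1.62% of cells with a captured UMI, and sets no limit on the share of cells that express the gene. Dcstamp was at 182, 303, 250 and 219 CPM in irradiated tumors 1 to 4 and at 317, 328 and 392 CPM in controls 1 to 3. Ctsk was at 9536, 10839, 10885 and 8145 CPM in irradiated tumors 1 to 4 and at 12928, 11181 and 11810 CPM in controls 1 to 3. The groups did not overlap in Dcstamp or in Ctsk, but how often this happens over all genes in these cells was not counted. A cell entered the co-expressing group in part through its UMIs of Dcstamp and Ctsk, and no test was run on either.

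Fewer of these cells were found in irradiated tumors on average, with overlap. They made up 0.507%, 0.940% and 0.667% of retained cells in controls 1 to 3 (26, 70 and 44 cells) and 0.213%, 0.299%, 0.538% and 0.229% in irradiated 1 to 4 (14, 7, 17 and 7 cells). The means were 0.705% ± 0.219 (SD, n = 3) in controls and 0.320% ± 0.15 (SD, n = 4) in irradiated tumors, a difference of −0.385 percentage points. Irradiated 3 lay above control 1, and its 95% Wilson interval, which covers counting error only, ran from 0.336% to 0.860%. Within set 1 the shares were 0.213% in the irradiated tumor and 0.804% in the controls, and within set 2 they were 0.355% and 0.507%. After thinning to 3000 UMIs the means were 0.249% and 0.612%. The filters had removed 49 of the 234 such cells in the deposited matrices, all for a high mitochondrial share, 20.9% against 13.3% of all cells. Because the cut was set on these cells, no test was run on the share.

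**Figure D3:**
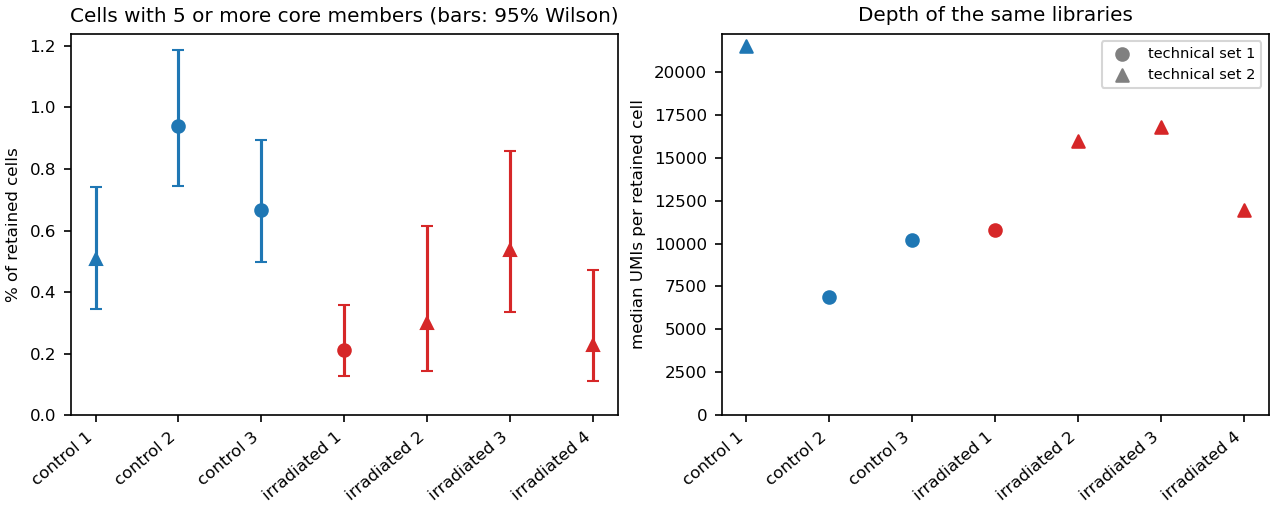
Left, percent of retained cells with 5 or more core members in each tumor, with 95% Wilson bars; right, median UMIs per retained cell in the same libraries; circles are set 1, triangles set 2, blue control and red irradiated. Irradiated 3, at 0.538%, lies above control 1, at 0.507%, so the groups overlap, and depth runs from 6865 to 21501 UMIs in the controls alone.

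A list of 61 other genes of the osteoclast pathway was compared between the co-expressing cells and the macrophage gate on the CPM scale. The co-expressing cells were higher in 7 of 7 tumors for 28 genes and lower in 7 of 7 for 19. Of the 7133 genes of at least 20 CPM in either, 22.5% were higher and 25.4% lower in this sense, against 45.9% higher and 31.1% lower in the list, which was not limited to genes of that level. The median log2 ratio was 0.44 for the list and 0.05 for all genes. Genes named from the list here were chosen after their values were seen.

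Of the acid secretion genes, 11 of 12 were higher in every tumor and none was lower. The proton-pump subunit Atp6v1b2 averaged 1133 CPM against 168 CPM in macrophages and Atp6v0c 3344 against 1092. Snx10, a sorting nexin in which loss-of-function mutations cause osteopetrosis, averaged 682 CPM against 105. Carbonic anhydrase 2 (Car2), which supplies protons, averaged 34.3 CPM against 0.19. Of the transcription factors, 6 of 12 were higher and 3 lower in every tumor. Nfatc1, the main switch of the program, averaged 885 CPM against 44.8, Jdp2 1457 against 189 and Prdm1, which represses inhibitors of the program, 373 against 45.2. Fos was the other way, at 1575 against 2752 CPM. The inhibitors Irf8, Bcl6 and Zeb2 were lower in every tumor, Irf8 at 15.7 CPM against 176, Bcl6 at 58.8 against 328 and Zeb2 at 723 against 1649. Irf8 is itself a transcription factor of the monocyte and macrophage lineage.

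The receptors split, with 4 of 11 higher and 5 lower in every tumor. The costimulatory receptor Oscar averaged 125 CPM against 0.26 in macrophages, the calcitonin receptor Calcr 26.0 against 0.09 (121 and 8 UMIs) and Siglec15 23.1 against 0.03 (76 and 4 UMIs). Trem2 averaged 253 CPM against 587, the adaptor Fcer1g 991 against 2987 and the inhibitory receptor Lilrb4a 17.6 against 279, while Csf1r was at 507 against 547. Adhesion and cytoskeleton genes were higher in every tumor for 6 of 10 and lower for 3. The vitronectin receptor subunit Itgb3 averaged 71.9 CPM against 0.84, the kinase Src 103 against 8.90 and the myosin Myo10 421 against 13.4. Among proteases and matrix genes 1 of 9 was higher, Mmp14 at 439 CPM against 123, and 4 were lower, among them the general lysosomal proteases Ctsb at 558 against 2448 and Ctsd at 407 against 1112. The ligands Csf1 and Il34 and the RANKL decoy Tnfrsf11b were in neither class. Of the co-expressing cells, the macrophage gate and the tumor gate, the tumor gate had their highest levels. These were 231 CPM for Csf1, 49.1 CPM for Il34 and 19.3 CPM for Tnfrsf11b.

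**Figure D4:**
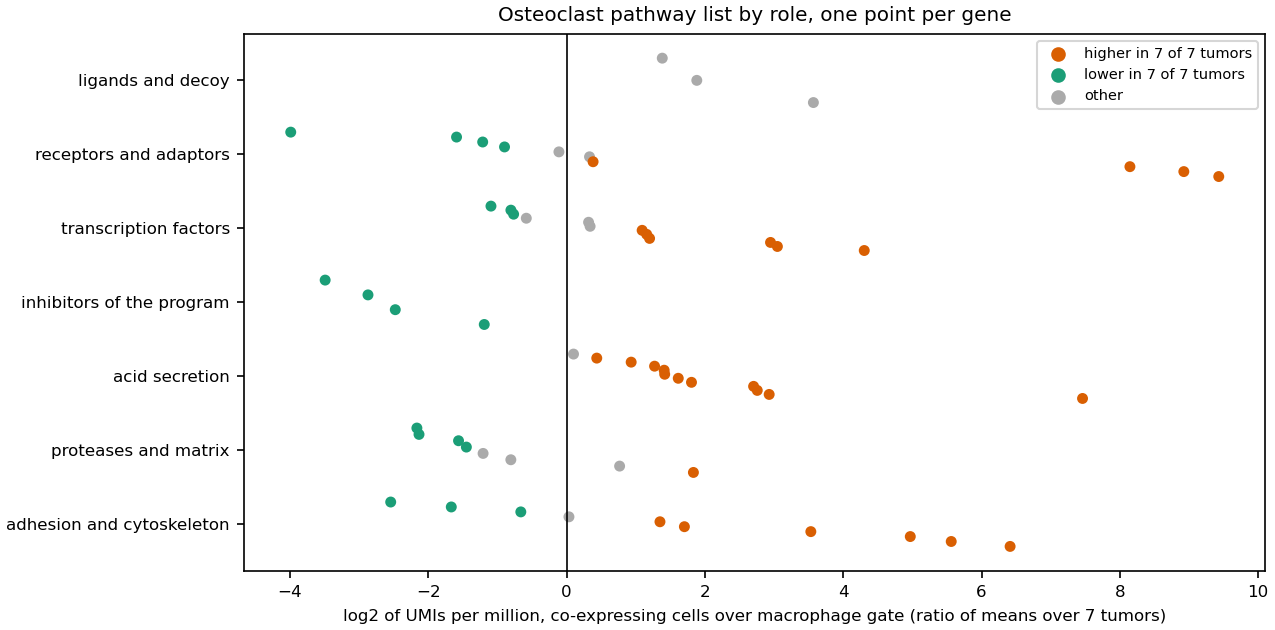
Log2 ratio of CPM in co-expressing cells over the macrophage gate (ratio of means over 7 tumors; x axis) for 59 of the 61 pathway genes, those with more than 3 UMIs in the co-expressing cells, by role (y axis); orange points are higher and green points lower in 7 of 7 tumors. Acid secretion genes lie to the right of 0 (11 of 12 higher in every tumor) and the inhibitors to the left.

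The study asked how RT changes the tumor and host cells of these allografts, and the members were compared between irradiated and control tumors in macrophage-gate cells, with UMIs summed per tumor. In sums of this kind, fewer cells of a type and less RNA per cell cannot be told apart. Acp5 was at 41.0, 61.5 and 37.0 CPM in controls 1 to 3 and at 29.8, 27.9, 26.1 and 32.6 CPM in irradiated 1 to 4. Every irradiated tumor lay below every control. Atp6v0d2 was at 6.57, 11.4 and 3.98 CPM in controls and at 0.78, 1.49, 2.76 and 3.25 CPM in irradiated tumors, again with no overlap. Groups that did not overlap and were lower after RT were seen for 2 of the 8 members tested and for 2.29% of the 12721 genes. Ctsk was at 43.7, 70.7 and 7.96 CPM in controls and at 2.35, 1.99, 2.92 and 8.06 CPM in irradiated tumors, so that irradiated 4 reached control 3. Mmp9 was at 30.4, 19.2 and 1.62 CPM against 1.57, 0.50, 1.34 and 1.86 CPM, with control 3 inside the irradiated range.

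None of the 8 members tested in macrophages passed the edgeR quasi-likelihood test at an adjusted p of 0.05, and nor did any of the 12721 genes. DESeq2's Wald test called 1 gene, which was not a member, and 670 genes (5.27%) had an unadjusted p below 0.05. The log2 fold changes (irradiated over control, ± SE) were −0.71 ± 0.19 for Acp5, −1.82 ± 0.49 for Atp6v0d2, −3.38 ± 0.77 for Ctsk, −3.69 ± 0.87 for Mmp9 and −0.91 ± 0.35 for Dcstamp, each with an adjusted p of 0.838 in the edgeR quasi-likelihood test. These 5 of 8 members were lower at an unadjusted p below 0.05, against 2.71% of all genes, and 6 of 8 had a log2 fold change below 0, against 51.4%. Which of the 5 were below 0.05 in that test depended on the gate. With a stricter gate Ctsk (unadjusted p = 0.0348) and Mmp9 (0.0131) were, but Acp5 (−0.21), Atp6v0d2 and Dcstamp were not. With a looser gate Atp6v0d2 (0.0450) and Dcstamp (0.0433) were, but Acp5, Ctsk (−1.15) and Mmp9 (−1.20) were not. In the main gate Ocstamp (0.43 ± 0.50), St18 (−0.13 ± 0.33) and Tnfrsf11a (0.04 ± 0.13) had estimates smaller than their SE. St18 was at 89.5, 81.2 and 48.3 CPM in controls against 39.2, 64.9, 106 and 63.2 CPM in irradiated tumors, and Tnfrsf11a at 210, 200 and 149 against 201, 176, 190 and 215 CPM. The receptor and St18 thus overlapped between the groups.

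Many of the UMIs behind this difference were in the 8 co-expressing cells inside the gate, of which 3 were in control 1, 4 in control 2 and 1 in irradiated 4. These cells were picked by their UMIs of the same genes, so removing them had to lower those genes in the tumors that held them. The values without them are given as a description. Without them Acp5 was at 23.7, 32.0 and 37.0 CPM in controls and at 29.8, 27.9, 26.1 and 27.5 CPM in irradiated tumors, and the groups overlapped. Its log2 fold change moved from −0.71 to −0.18 (unadjusted p = 0.264). Dcstamp moved from −0.91 to −0.11, Atp6v0d2 from −1.82 to −1.10, Ctsk from −3.38 to −1.89 and Mmp9 from −3.69 to −1.22. Ctsk then stood at 6.38, 8.13 and 7.96 CPM in controls against 2.35, 1.99, 2.92 and 1.10 CPM, without overlap. Mmp9 did not overlap either, at 1.62 to 2.72 CPM in controls and 0.50 to 1.57 CPM in irradiated tumors. The nearest Mmp9 values across the groups were 1.62 CPM in control 3 and 1.57 CPM in irradiated 1. The share of all genes without overlap in this setting was not counted. With all gate cells, 2.29% of genes were lower after RT without overlap. Ctsk had an unadjusted p of 0.00014 but an adjusted p of 0.848 in the edgeR quasi-likelihood test. T and NK cells, which should lack Ctsk, had 4.00 CPM and endothelial cells 6.22 CPM, over irradiated and control tumors together. These levels rest on 18 and 23 Ctsk UMIs. The controls lay above both levels and the irradiated tumors below both, but the background of each group on its own was not compared. Ctsk in tumor cells also had a negative estimate, given below, and the part of free RNA from those cells in the macrophage value was not tested.

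**Figure D5:**
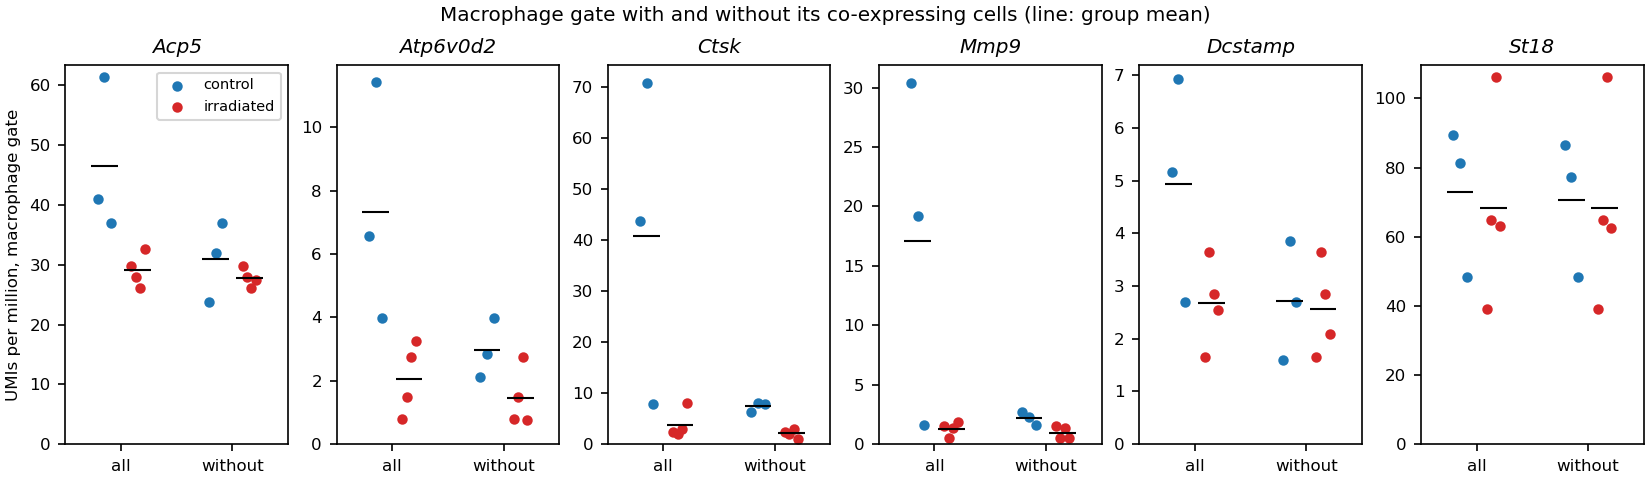
CPM in the macrophage gate for 6 members (panels, linear axes from 0), with all gate cells and without the 8 co-expressing cells; points are tumors, blue control and red irradiated, and lines are group means. Removing the 8 cells lowers Acp5 in control 2 from 61.5 to 32.0 CPM and Ctsk from 70.7 to 8.13 CPM, while St18 hardly moves.

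When the other leukocytes, which hold most of the co-expressing cells, were summed with the macrophage gate, all 8 members tested had a log2 fold change below 0, against 51.6% of the 13225 genes. None passed the edgeR quasi-likelihood test, nor did any other gene, with 1165 genes (8.81%) at an unadjusted p below 0.05. Dcstamp had −1.31 ± 0.25 (SE; adjusted p = 0.263), Atp6v0d2 −1.36 ± 0.39, Ctsk −1.50 ± 0.49, Acp5 −1.14 ± 0.38 and Ocstamp −0.73 ± 0.25. Members whose groups did not overlap, lower after RT, were 4 of 8 (Atp6v0d2, Ctsk, Dcstamp and Ocstamp), against 4.91% of genes, and 5 of 8 were lower at an unadjusted p below 0.05, against 5.24%. Tnfrsf11a, with −0.02 ± 0.13, was not among them. With the set of libraries as a term, Dcstamp had an unadjusted p of 0.0042 in the edgeR quasi-likelihood test. Acp5 (0.0815), Atp6v0d2 (0.0657), Ctsk (0.0792) and Ocstamp (0.0513) were then above 0.05, with estimates still below 0. The share of co-expressing cells in these sums was 2.00% ± 0.416 (SD, n = 3) in controls and 0.830% ± 0.461 (SD, n = 4) in irradiated tumors, and its part in the fold changes was not tested.

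In tumor-gate cells the ligand Tnfsf11 was at 7.40, 8.13 and 7.94 CPM in controls 1 to 3 and at 4.51, 6.64, 7.29 and 4.06 CPM in irradiated 1 to 4. Every irradiated tumor lay below every control, which was seen for 1 of the 6 members tested and for 0.963% of the 17347 genes. The log2 fold change was −0.56 ± 0.23 (SE), with an unadjusted p of 0.0374 and an adjusted p of 1.00 in the edgeR quasi-likelihood test. Within set 1 the means were 4.51 CPM in the irradiated tumor and 8.04 CPM in the controls, and within set 2 they were 5.99 and 7.40 CPM. The nearest pair across the groups was irradiated 3, at 7.29 CPM, and control 1, at 7.40 CPM.

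The tumor cells' proteases did not separate the groups. Ctsk was at 67.6, 93.7 and 73.9 CPM in controls and at 80.7, 36.9, 52.1 and 34.5 CPM in irradiated tumors, where irradiated 1 lay inside the control range and the other 3 below it. Its log2 fold change was −0.69 ± 0.31 (SE; unadjusted p = 0.0560). Mmp9 was at 51.1, 64.3 and 72.2 CPM against 69.9, 48.2, 56.5 and 77.6 CPM, with −0.09 ± 0.21. Tnfrsf11a had 0.22 ± 0.36 and St18 0.46 ± 0.27. Acp5, at background in these cells, had −1.63 ± 0.46 (unadjusted p = 0.0063). The macrophage genes Tyrobp (−0.68, at 4.80 CPM), Csf1r (−0.73) and Trem2 (−0.80), which tumor cells should lack, also had negative estimates there. Tyrobp and Csf1r were named after their values were seen. Of the 8 receptors and adaptors of the pathway list tested in tumor cells, 3 had positive estimates. The part of macrophage RNA in the Acp5 value was not tested. No gene passed the edgeR quasi-likelihood test or DESeq2's Wald test in tumor cells, and 234 genes (1.35%) had an unadjusted p below 0.05. At that level 2 of 6 members were lower (Acp5 and Tnfsf11), against 1.09% of genes, and 4 of 6 had a log2 fold change below 0, against 53.3%.

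The difference of the RT effect between the gates was tested as an interaction over 16515 genes, with the tumor as a block. Mmp9 had an interaction of −3.34 ± 1.08 log2 units (SE; macrophage effect minus tumor effect), Ctsk −2.44 ± 0.92 and Acp5 0.78 ± 0.34, with adjusted p of 0.942, 0.996 and 0.998 in the edgeR quasi-likelihood test. No gene passed, and 815 (4.93%) had an unadjusted p below 0.05, among them these 3 of 9 members. Without control 3, Mmp9 had −4.39 and an adjusted p of 0.0316 in the same test, and it was then the 1 gene called. The co-expressing cells of controls 1 and 2, which carry Mmp9, are still in that fit.

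Summed over all retained cells of a tumor, Ctsk was at 121, 211 and 135 CPM in controls and at 96.4, 70.5, 110 and 58.2 CPM in irradiated tumors. Tnfsf11 was at 6.76, 7.29 and 6.97 CPM against 4.67, 5.99, 6.58 and 3.49 CPM. For both, every irradiated tumor lay below every control, 2 of 9 members against 0.706% of the 19560 genes. Ctsk had a log2 fold change of −0.97 ± 0.27 (SE), Atp6v0d2 −1.04 ± 0.41 and Mmp9 −0.38 ± 0.15, and these 3 of 9 members were lower at an unadjusted p below 0.05, against 0.818% of genes. A log2 fold change below 0 was seen for 7 of 9 members and 55.1% of genes. Without the co-expressing cells, which were picked by their UMIs of the core members, it was seen for 5 of 9, as Dcstamp came to 0.87 and Ocstamp to 1.09. Acp5 then moved from −0.77 to −0.18, and Ctsk (unadjusted p = 0.0793) and Mmp9 (unadjusted p = 0.280) were no longer below 0.05. None of the 9 members, and no other gene, passed the edgeR quasi-likelihood test, with 431 genes (2.2%) at an unadjusted p below 0.05 in either direction. With all retained cells, Atp6v0d2 within set 2 was at 7.27 CPM in the irradiated tumors and 6.75 CPM in the control. Ctsk and Mmp9 were lower after RT within both sets. With the set as a term, the unadjusted p in the edgeR quasi-likelihood test was 0.0286 for Ctsk, 0.142 for Atp6v0d2 and 0.124 for Mmp9. In whole-tumor sums the share of each cell type also enters, and macrophages made up 25.7% to 52.0% of retained cells per tumor.

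Of the pathway list, 53 genes were tested in macrophages and 57 in tumor cells, and none passed the edgeR quasi-likelihood test in either direction. In macrophages 23 of the 53 had a positive log2 fold change and the median was −0.04. In tumor cells 27 of the 57 were positive and the median was −0.02. The 3 largest estimates in macrophages were those of the matrix protein osteopontin (Spp1, −1.26 ± 0.29), Myo10 (−0.99 ± 0.33) and the glycoprotein Gpnmb (−0.76 ± 0.40). In tumor cells they were Rab38 (−0.95 ± 0.57), Trem2 (−0.80 ± 0.23) and Mmp12 (0.79 ± 1.02).

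Co-detection within the macrophage gate was compared with the number of cells expected from each gene alone within 5 classes of depth of the same tumor. Acp5 and Atp6v0d2 were found together in 47 cells against 19.7 expected, a ratio of 2.39 that lay above 1 in 7 of 7 tumors. Without the 8 co-expressing cells it was 39 cells against 17.6, a ratio of 2.21 and again above 1 in 7 of 7. Acp5 and St18 shared 448 cells against 365 expected (ratio 1.23), above 1 in 7 of 7. Atp6v0d2 and St18 shared 39 cells against 20.4 (ratio 1.91), above 1 in 6 of 7. Acp5 and Dcstamp shared 19 cells against 9.0 (ratio 2.11). Dcstamp and the receptor Tnfrsf11a went the other way, with 23 cells against 34.2 expected (ratio 0.67), below 1 in all tumors but 1. These counts are given as a description, since Acp5, Atp6v0d2 and St18 were chosen for leading the same macrophage cluster, so that their pairing restates that choice, and the other pairs are sparse.

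In tumor cells the proteases were not found together more than depth would give, with a ratio of 0.90 for Ctsk and Mmp9, above 1 in 1 of 7 tumors. Mmp9 and Tnfrsf11a shared 1348 cells against 1056 expected (ratio 1.28), above 1 in 7 of 7. Ctsk and the ligand Tnfsf11 shared 935 cells against 794 expected (ratio 1.18), above 1 in 7 of 7. Of 8 osteoblast and chondrocyte markers set against Tnfsf11 in the same way, 4 had a ratio above 1 and 4 below. The ratios ran from 0.477 for Ibsp, a bone matrix protein, in 6 cells (above 1 in 0 of 7 tumors) to 1.40 for Alpl, the alkaline phosphatase of mineralizing cells, in 150 cells (above 1 in 5 of 7). For the decoy receptor Tnfrsf11b the ratio with Tnfsf11 was 0.862 and lay above 1 in 0 of 7 tumors.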

How the data were processed

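The deposited files hold whole-number UMI counts per gene and cell for 7 tumors, made by the authors from 10x 3′ libraries (10000 cells loaded each) with Cell Ranger, version 8.0.0 per the file headers, on mm10. The submitters' notes also name Seurat 4.4. The 9 members, the lists of markers and pathway genes, the gates and the cut at 5 core members were chosen with earlier results of these data known. Cells were removed where UMIs, genes, mitochondrial or ribosomal share lay over 3 median absolute deviations from the median of that library. Scrublet marked 706 cells (2.06%) as doublets, which were kept.

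Macrophage-gate cells had at least 0.5% of UMIs in 15 markers and 6 markers found, and tumor-gate cells at least 0.2% in 15 markers with 4 found and no Xist UMI. Cells were thinned to 3000 UMIs for shares, which left out 2358 macrophage, 502 tumor and 490 T and NK cells. CPM and shares are per tumor, and a count of 0 is read as up to 3 UMIs. UMIs summed per tumor and gate were tested with edgeR 4.0.16 in R 4.3.3 (filterByExpr, TMM, quasi-likelihood test, two-sided, Benjamini-Hochberg over all genes tested), with DESeq2 1.42.0 as an alternative. The labels call the tumors biological replicates. In simulated data, a log2 change of 2 given to 200 genes was recovered by edgeR for 91% of them in the macrophage comparison and for 85% in the tumor comparison. Of the calls, 4.21% and 6.59% were false. The simulated counts held no library sets and no rare cells with high levels, and smaller changes were not simulated. These shares therefore do not give the recovery for the members. Same-numbered tumors did not deviate together (correlations of −0.370, −0.126 and −0.043 in macrophages and −0.442, −0.038 and 0.115 in tumor cells), so the main fits carry no block. Named pathway genes are the 3 largest changes per gate, and others are marked as chosen after their values were seen. An item of the pathway list is not reported here.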

Additional observations from a re-analysis of the deposited data

Results flagged for a closer look

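In the 38 groups of 4 irradiated tumors that were checked, 4 held a tumor whose gap to its nearest neighbor, over the whole range of the group, passed Dixon's 95% limit, and chance alone gives about 1 in 20. In the macrophage gate Ctsk was at 8.06 CPM in irradiated 4 against 1.99 to 2.92 CPM in the other irradiated tumors, and without the 1 co-expressing cell of that gate it was at 1.10 CPM. Mmp9 in the co-expressing cells was at 2199 CPM in irradiated 1 against 3818 to 3954 CPM in the others. The remaining 2 rest on few UMIs. Tnfsf11 in the macrophage gate was at 0.251 CPM in irradiated 3, from 3 UMIs, with 0 in the others, and Dcstamp in tumor cells was at 0.0811 CPM in irradiated 4 with 0 in the others.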

How the results depend on the processing

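Of the log2 fold changes recomputed under an alternative, 31 turned and 1 came to pass the adjusted p threshold of 0.05. The other 556 kept their direction and their side of that threshold. None had passed it in the main fits, so shifts in unadjusted p are not counted here. Depth limits Ocstamp, with 487 UMIs in all. The calls stayed at 0 except for 1 gene by DESeq2's Wald test in macrophages, 0 to 1 when each tumor was left out of the interaction (Mmp9, without control 3) and 0 to 5 when each was left out of the sum of macrophages and other leukocytes (without irradiated 1). The replicate block, which the labels' numbers do not pair, also gave 0 calls, with 254 genes at an unadjusted p below 0.05 in macrophages and 132 in tumor cells, and a difference of −0.355 percentage points in the share of co-expressing cells. That difference was −0.575 for cells with 4 or more core members, −0.591 in set 1, −0.152 in set 2 and −0.484 to −0.267 when each tumor was left out. The Acp5 and Atp6v0d2 ratio was 5.06 (16 cells) after thinning. The cause was not tested for any of these.

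With the set of libraries as a term, the log2 fold change turned for Ocstamp in macrophages (−0.0056), Mmp9 (0.11) and Mmp12 (−0.0044) in tumor cells and St18 in all retained cells (−0.41). With the replicate block it turned for Mmp12 (−0.065) and St18 (−0.23), and with the stricter gate for Mmp9 in tumor cells (0.15) and the Atp6v0d2 interaction (0.68). Without the co-expressing cells, added after seeing the data, Ocstamp (1.09) and Dcstamp (0.87) turned in all retained cells. Leaving out each tumor gave, in macrophages, −0.40 to 0.057 for St18 and −0.094 to 0.12 for Tnfrsf11a, and in tumor cells −0.24 to 0.11 for Mmp9, −0.044 to 0.70 for Tnfrsf11a and −0.58 to 1.19 for Mmp12. It gave interactions of −0.75 to 0.031 for Atp6v0d2, −0.22 to 2.31 for Dcstamp and −0.76 to 0.084 for Tnfrsf11a. In all retained cells it gave −0.56 to 0.024 for Dcstamp and −0.13 to 0.38 for St18, and with the other leukocytes −0.15 to 0.079 for Tnfrsf11a.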

Other observations

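Dcstamp had a second site among leukocytes. The dendritic gate, 241 cells, held 369 Dcstamp UMIs, more than the 352 of the 11857 macrophage-gate cells, at 130 ± 74.9 CPM (SD, n = 7), and 19.1% of its cells had one. Cells with a UMI of Cd209a, a lectin of conventional dendritic cells of the second kind and of monocyte-derived ones, had Dcstamp in 43.0% (34 of 79) against 7.41% (12 of 162) of the rest. Ocstamp was found in 6.64% of dendritic cells. Control 2 stood low for Dcstamp at 16.7 CPM, where irradiated 2 was highest at 232 CPM, and in that control library the dendritic gate held 255 CPM of Acp5 against 2.37 to 9.73 CPM in the others.

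In T and NK cells the ligand Tnfsf11 was found in 19.7% of cells with a Cd4 UMI (71 of 361) against 9.28% of those without, and in 5.37% of cells with Cd8a against 14.2%. Acp5 ran the other way, at 24.0% of cells with Cd8a against 15.8% of those without. Per tumor Tnfsf11 in these cells was at 52.7, 45.5 and 87.3 CPM in controls and at 79.3, 35.6, 59.3 and 24.6 CPM in irradiated tumors, with wide overlap.

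Across macrophage-gate cells, 5912 genes were ranked by how their levels went with the sum of the core members. The first was Cadm1, an adhesion molecule (mean Pearson r 0.160 over 7 tumors, 0.12 to 0.199). Next came the long noncoding RNA Airn (0.157), Pde4dip (0.155) and the G protein-coupled receptor kinase Grk3 (0.146). Airn was at 697 CPM in tumor cells against 23.5 CPM in macrophages, and Pde4dip at 44.5 against 22.7 CPM. Cadm1 (0.15 against 78.0 CPM) and Grk3 (0.06 against 34.0 CPM) were lower in tumor cells. Cells of 1 tumor share a library and its depth, and correlations of this size are weak. Outside the pathway list, the genes most raised in the co-expressing cells over macrophages by ratio of means included Nyap2 at 129 CPM against 0.11, Rufy4 at 123 against 0.23, Akap6 at 236 against 0.85 and the sodium-proton exchanger Slc9b2 at 660 against 3.01, named after their values were seen.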
